A study of Mus musculus with 48 samples.

Results

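Mixed gastrocnemius muscle from 14 of the 48 mice in the series was compared by circulating insulin: 5 mice of the Cort_ATGLi group with an insulin label above 20 (high insulin: p39, p17, p24, p23 and p18, in falling order of insulin) against 9 mice of the same group with a label below 20 (low insulin: p13, p47, p14, p38, p42, p25, p40, p48 and p41, likewise). The rule for the classes uses the insulin label alone and no gene value, and the unit of insulin is not given in the labels. All 14 were male C57BL6J mice that drank water with 100 ug/ml corticosterone, the main glucocorticoid of mice, for 2 weeks and ate Teklad 8640 food that held 571 mg/kg of the ATGL lipase inhibitor atglistatin, and all 14 carried a nondiabetic label. The classes therefore shared drug, diet and hormone, and differed in the insulin that the mice had; insulin was not assigned, and the labels give no age. Other groups enter only as a frame: Cort_CON, with corticosterone and no atglistatin (11 mice with high and 3 with low insulin), and EtOH_ATGLi, with 1% ethanol vehicle and atglistatin (10 mice). EtOH_CON, with vehicle and no atglistatin (10 mice), entered the fits and the scaling over all 48 libraries, and its insulin is given below. Each library carries its own insulin and glucose label and was read as 1 mouse, which the labels do not state, so p-values measure the spread between these libraries.

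Insulin binds its receptor on muscle fibres and, through the insulin receptor substrates, PI3-kinase and Akt, promotes glucose uptake and glycogen storage and keeps FoxO transcription factors out of the nucleus, where they would turn on the atrophy ubiquitin ligases. Glucocorticoids act in muscle in the opposing direction: through their receptor they raise FoxO factors, the same ligases and the pyruvate dehydrogenase kinase Pdk4, and animals exposed to them for long commonly make more insulin to hold glucose in check. ATGL, encoded by Pnpla2, starts the breakdown of stored triglyceride, and its inhibition lowers the supply of fatty acids from fat tissue.

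Libraries read the 3′ ends of polyadenylated RNA with 50 bp forward reads, and the deposited values are raw counts per gene. Levels are given here as CPM, the usual unit of counts relative to a library's scaled total, with scaling over all 48 libraries. They are not scaled by transcript length, so they are compared between mice and not between genes. The 14 libraries held between 11283326 and 18743702 counts, and after scaling 1 CPM stood for between 9.92 counts, in p24, and 22.2 counts, in p41. No pair of the 14 agreed within sampling noise, with a lowest chi-square per degree of freedom of 3.94 among 91 pairs on halved counts (the deposited counts of these libraries are all even). On the first principal component, which held 20.6% of the variance, p41 stood apart on one side and p24 and p25 on the other. Library p41, from the low-insulin mouse with the lowest insulin of the 14, also correlated least with the rest, at a mean of 0.953, where the others had means from 0.963 to 0.977. Title numbers were unevenly spread, with 4 of 5 high-insulin and 3 of 9 low-insulin libraries numbered p13 to p25. Markers of skeletal muscle fibres summed to between 106100 and 128500 CPM in high-insulin libraries and between 74930 and 115100 CPM in low-insulin libraries, which fits the labelled tissue.

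Insulin labels were 36.0, 32.8, 32.7, 28.8 and 28.5 in the high-insulin mice, against a lowest value of 2.19, a median of 9.34 and a highest value of 19.5 in the low-insulin mice. The gap between the classes thus ran between 19.5 and 28.5, with p13 and p47 just under the threshold. The EtOH_ATGLi mice, which had no corticosterone, had insulin between 0.464 and 2.05, so every Cort_ATGLi mouse lay above them, p41 by the smallest margin. In EtOH_CON, with neither corticosterone nor atglistatin, insulin ran from 1.19 to 3.46. Low-insulin mouse p41, at 2.19, lay within that range, and every other Cort_ATGLi mouse lay above it. Fed glucose was 129, 124, 138, 133 and 130 in the high-insulin mice and ran between 95 and 124, with a median of 105, in the low-insulin mice. The classes met at 124 and were otherwise apart. Mean glucose was 130.8 ± 5.17 in high-insulin mice and 106.1 ± 9.94 in low-insulin mice (SD, n = 5 and 9), a difference of 24.7 (two-sided exact permutation test, p = 0.002, where the smallest p this design allows is 0.000999). Over the 14 mice, Pearson's r of insulin with glucose was 0.77 (permutation test, p = 0.00257) and Spearman's rho was 0.65 (permutation test, p = 0.0138), and r was 0.75 without p17 and p39, the mice farthest from the median insulin. Insulin and glucose separated the mice into nearly the same classes, so the pooled r mostly describes that separation: within the 9 low-insulin mice r was 0.045. Muscle of high-insulin mice was therefore also muscle of mice with higher fed glucose, and the part of each in a gene's level cannot be told apart from the split alone.

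**Figure D1:**
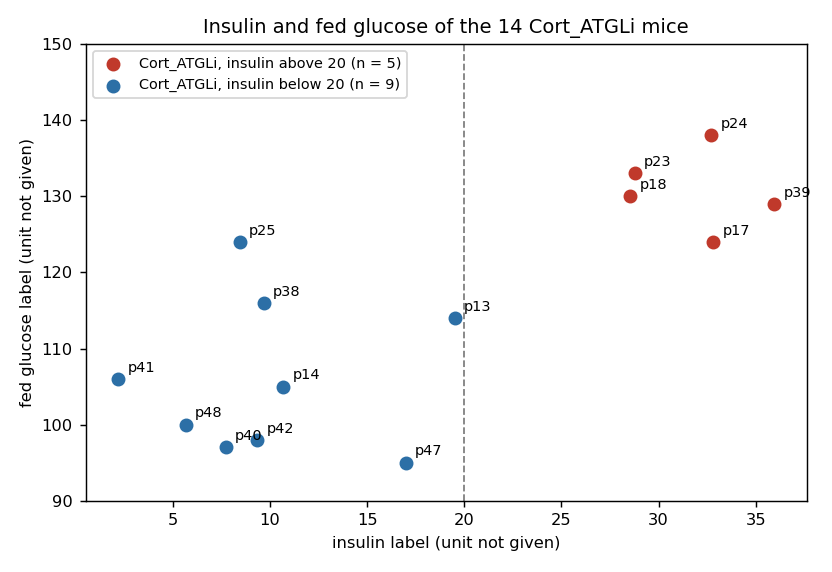
Insulin label (x axis) and fed glucose label (y axis) of the 14 Cort_ATGLi mice, units not given, with red points for the 5 mice above the dashed line at 20 and blue points for the 9 mice below it. The red points lie between 124 and 138 in glucose and the blue points between 95 and 124.

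No gene passed the test between high-insulin and low-insulin muscle. Of 12042 genes tested, 0 passed an adjusted p of 0.05 (percent called 0; edgeR's quasi-likelihood test, two-sided, Benjamini-Hochberg), and the smallest adjusted p was 0.994. At an unadjusted p under 0.05 there were 457 genes, or 3.8% of those tested, with 182 (1.51%) higher and 275 (2.28%) lower in high-insulin muscle. DESeq2 also called 0 genes, with 512 at an unadjusted p under 0.05 and a smallest adjusted p of 0.485, and limma voom called 0, with 479. With fed glucose as a covariate edgeR called 0 genes, with 418 at an unadjusted p under 0.05. Estimates were spread to both sides, higher in high-insulin muscle for 47.9% of genes and lower for 52.1%, with a median log2 difference of -0.01. The median standard error of a gene's log2 difference was 0.17. The 95% interval lay within a 2-fold difference either way for 10447 genes (86.8%) and within a 1.5-fold difference for 7423 genes (61.6%). CPM of the classes did not overlap for 10 genes (0.083%). They were looked up after their values were seen: Bdh1, Dffa, Zhx2, Rhbdf2, Ptp4a1 and Mtx1 had higher levels in all 5 high-insulin libraries, and Col14a1, Impa1, Agk and Ints6l had lower levels.

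No gene of the insulin pathway itself passed the test. Of 38 genes tested from a list of insulin and IGF signalling, 0 had an unadjusted p under 0.05, near the share of 3.8% over all genes, and the median log2 difference was -0.02, beside -0.01 over all genes. Insr, the insulin receptor, averaged 27.5 ± 4.30 CPM in high-insulin muscle and 26.05 ± 4.93 CPM in low-insulin muscle (SD), with a 95% interval of the log2 difference from -0.22 to 0.35. Irs1, an insulin receptor substrate, had 24.6, 24.3, 20.2, 28.7 and 21.3 CPM in high-insulin libraries, against a lowest of 20.5, a median of 25.0 and a highest of 33.2 CPM in low-insulin libraries. The ranges overlapped, with 4 low-insulin libraries above every high-insulin library, and the log2 difference was -0.19 (SE 0.13, interval -0.46 to 0.08). Irs2, the other main substrate in muscle and a gene that insulin represses in liver, averaged 23.3 ± 6.04 CPM in high-insulin and 23.5 ± 7.60 CPM in low-insulin muscle. Pik3r1, the regulatory subunit of PI3-kinase, ranged from 80.1 to 209.8 CPM in high-insulin and from 85.4 to 232.1 CPM in low-insulin muscle. Hk2, the muscle hexokinase that insulin induces, averaged 249 ± 39.6 CPM in high-insulin and 271 ± 46.7 CPM in low-insulin muscle, and Srebf1, a lipogenic factor that insulin induces in liver, averaged 15.1 CPM in each.

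Foxo1, the forkhead factor that Akt inactivates, had 178, 172, 95.2, 142 and 182 CPM in high-insulin libraries, against a lowest of 72.6, a median of 143 and a highest of 180 CPM in low-insulin libraries. The classes overlapped almost throughout, and the log2 difference was 0.25 (SE 0.21, interval -0.21 to 0.70). The atrophy ligases that FoxO factors induce lay as close: Fbxo32 (atrogin-1) averaged 806 ± 196 CPM in high-insulin and 769 ± 184 CPM in low-insulin muscle, and Trim63 (MuRF1) ranged from 946 to 1641 CPM in high-insulin and from 599 to 1995 CPM in low-insulin muscle. Over 30 genes from a list of FoxO factors and targets the median log2 difference was 0.03. Of these, 0 had an unadjusted p under 0.05, beside 3.8% of all genes. Over 23 atrophy ligases and adaptors the median was -0.02. Nedd4 (lower, edgeR p = 0.0252) and Asb4 (higher, edgeR p = 0.0292) had an unadjusted p under 0.05, beside the same 3.8% of all genes. Pdk4, which blocks glucose oxidation and is held down by insulin, had 171, 33.7, 82.3, 128 and 117 CPM in high-insulin libraries, against a lowest of 35.4, a median of 164 and a highest of 255 CPM in low-insulin libraries. Low-insulin libraries held the 4 highest values, but the other 5 of that class lay among the high-insulin values, and the log2 difference was -0.58 (SE 0.49, interval -1.65 to 0.48). Mstn, the secreted inhibitor of muscle growth, differed by 0.01 (SE 0.25).

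Among genes of the glucocorticoid response, none passed the test between the classes. Fkbp5, a co-chaperone and direct target of the glucocorticoid receptor, had 331, 302, 214, 231 and 364 CPM in high-insulin libraries, against a lowest of 181, a median of 264 and a highest of 323 CPM in low-insulin libraries and a highest of 77.4 CPM in the EtOH_ATGLi libraries. Every Cort_ATGLi library of either class thus lay above every library without corticosterone. The log2 difference between the classes was 0.11 (SE 0.14, interval -0.18 to 0.41). Over 32 genes from a list of the receptor and its targets, 0 had an unadjusted p under 0.05, beside 3.8% of all genes, with a median of 0.05. Glul, the glutamine synthetase that glucocorticoids induce, averaged 761 ± 174 CPM in high-insulin and 902 ± 242 CPM in low-insulin muscle. Dbp, a clock output factor, averaged 8.14 ± 1.07 CPM in high-insulin and 9.63 ± 2.79 CPM in low-insulin muscle, where EtOH_ATGLi libraries averaged 60.1 ± 21.8 CPM. Mt2, a metallothionein, and Lcn2, an acute-phase protein, were dominated by p41: Mt2 reached 3689 CPM there, while the other 8 low-insulin libraries stayed at or below 641 CPM and the high-insulin libraries between 186 and 717 CPM. Without p41 the log2 difference of Mt2 was 0.26, against -0.77 (SE 0.80) with it, and that of Lcn2 was 0.39, against -0.09 (SE 0.49).

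Pnpla2, which encodes the drug's target ATGL, had 340, 343, 334, 341 and 265 CPM in high-insulin libraries, against a lowest of 225, a median of 289 and a highest of 652 CPM in low-insulin libraries. The highest value was again that of p41, and 4 high-insulin libraries, from 334 to 343 CPM, lay above 7 of the other 8 low-insulin libraries. The log2 difference was -0.04 (SE 0.19) with p41 and 0.15 without it. RNA of this gene says nothing of the activity of the inhibited enzyme. Angptl4, a secreted inhibitor of lipoprotein lipase, averaged 6.03 ± 3.26 CPM in high-insulin and 5.72 ± 4.32 CPM in low-insulin muscle. Of these 18 pathway genes, 18 had overlapping classes and 0 had an unadjusted p under 0.05, near the shares over all genes, of which 0.083% did not overlap and 3.8% had such a p. For 14 of the 18 the 95% interval lay within a 2-fold difference, beside 86.8% of all genes. The exceptions were Pdk4, Angptl4, Mt2 and Lcn2, whose intervals were too wide to bound them there.

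**Figure D2:**
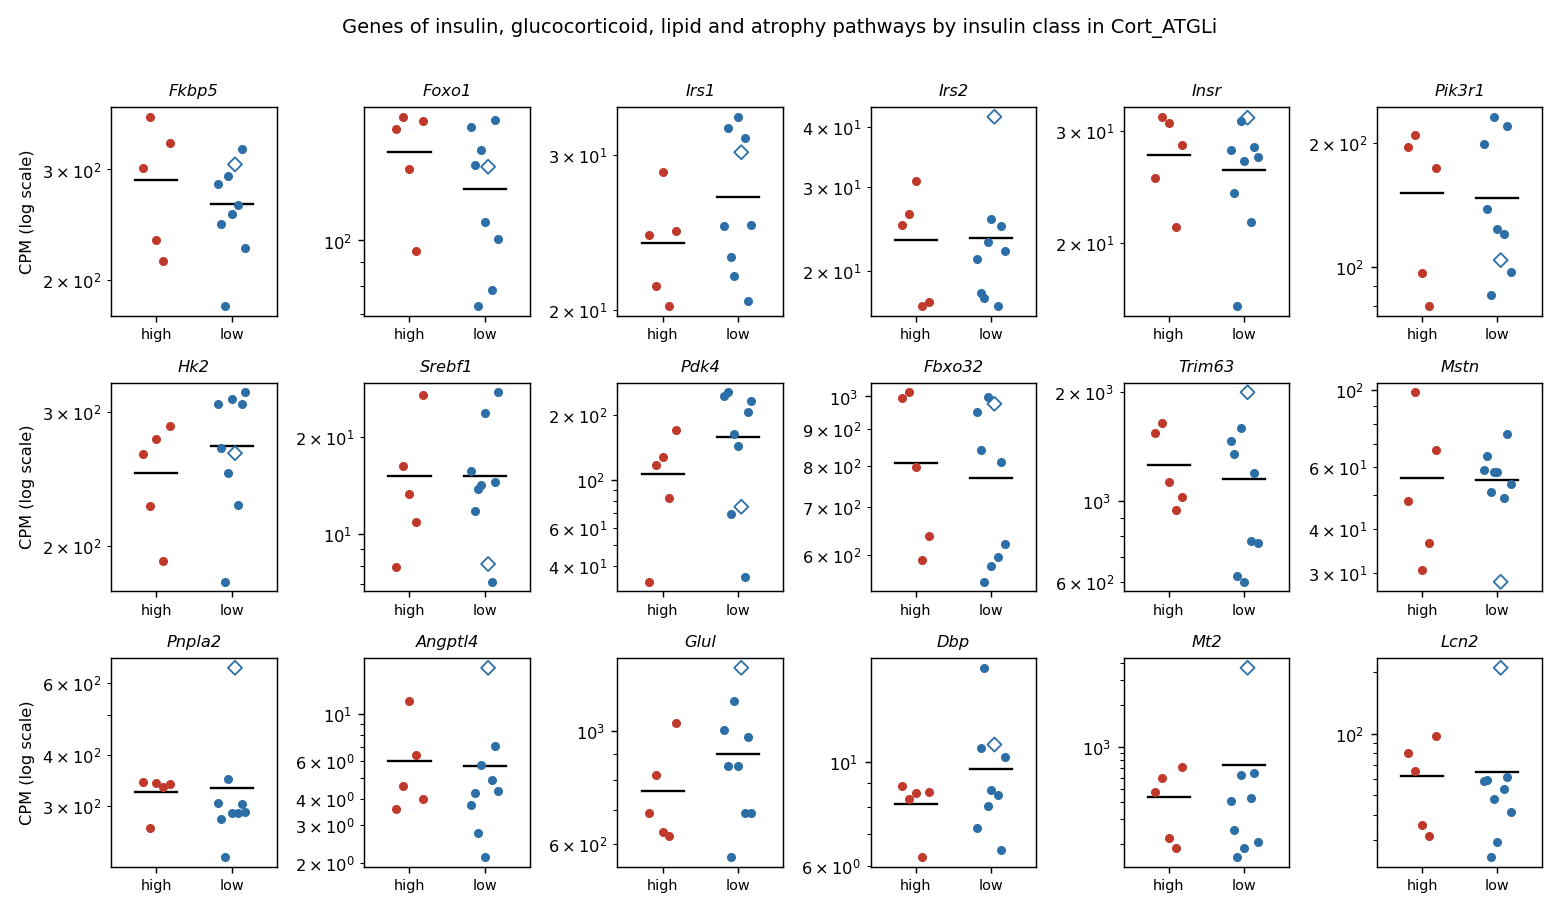
CPM (y axis, log scale) of 18 genes of insulin, glucocorticoid, lipid and atrophy pathways in the 5 high-insulin (red, left) and 9 low-insulin (blue, right) Cort_ATGLi libraries, 1 point per library, with a line at the class mean and an open diamond for p41. The classes overlap for all 18 genes, and p41 is the highest low-insulin point for Irs2, Insr, Trim63, Pnpla2, Angptl4, Glul, Mt2 and Lcn2.

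Of the 12 genes with the smallest p in the upward direction, none of them called, 3 act on ketone bodies, fatty acids or triglyceride. Bdh1, the mitochondrial enzyme that converts the ketone bodies beta-hydroxybutyrate and acetoacetate into each other (chr16:31422280-31458901, GRCm38), had 50.6, 54.6, 70.6, 50.9 and 56.6 CPM in high-insulin libraries, against a lowest of 24.8, a median of 41.3 and a highest of 44.8 CPM in low-insulin libraries. All 5 high-insulin libraries lay above all 9 low-insulin libraries, with p24 highest and p41 lowest. The mean was 56.7 ± 8.20 CPM in high-insulin and 39.7 ± 6.27 CPM in low-insulin muscle, a log2 difference of 0.51 (SE 0.12, unadjusted p = 0.000456, the smallest of all genes; edgeR adjusted p = 0.994). Without p24, p25 and p41 it was 0.32. Cpt2, which passes long-chain fatty acids into the mitochondrial matrix as acyl-CoA, had 40.2, 44.4, 40.3, 45.8 and 37.4 CPM in high-insulin libraries, against a lowest of 27.4, a median of 34.2 and a highest of 38.8 CPM in low-insulin libraries. Only p18 among the high-insulin libraries fell within the low-insulin range, and the log2 difference was 0.31 (SE 0.10, unadjusted p = 0.00436). Dgat2, which catalyses the last step of triglyceride synthesis, had 46.9, 43.8, 50.8, 54.1 and 36.3 CPM in high-insulin libraries, against a lowest of 30.3, a median of 36.9 and a highest of 43.8 CPM in low-insulin libraries, with a log2 difference of 0.34 (SE 0.11, unadjusted p = 0.00456). Again p18 was the high-insulin library inside the low-insulin range, and p42 the low-insulin library that reached the level of p17.

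The rest of the 12 upward genes were of mixed function. Dffa, the inhibitor subunit of the apoptotic DNA fragmentation factor, averaged 25.0 ± 3.93 CPM in high-insulin and 18.6 ± 1.77 CPM in low-insulin muscle and did not overlap between classes. Zhx2, a zinc-finger and homeobox repressor, averaged 13.95 ± 1.69 CPM in high-insulin and 10.7 ± 1.238 CPM in low-insulin muscle and did not overlap either. Naxd, which repairs hydrated NADH and NADPH, the mitochondrial ribosomal protein gene Mrpl47, the histone H4 gene Hist1h4h, the acidic residue methyltransferase gene Armt1 and Yjefn3 had log2 differences between 0.30 and 0.46. The antisense RNA Hectd2os had 0.76 (SE 0.19), but a counted gene lies on the other strand there, as for Naxd and Mrpl47, and no source used here says whether counting was by strand. The mitochondrial leucine tRNA mt-Tl1 had 0.68 (SE 0.22), with 66.4 CPM in p18 and 20.7 CPM in p39 of the same class.

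Of the 12 genes nearest to a difference in the downward direction, Rps6, a small-subunit ribosomal protein that S6 kinases phosphorylate downstream of insulin, had the smallest p. It had 10.7, 4.83, 8.07, 8.15 and 7.79 CPM in high-insulin libraries, against a lowest of 8.99, a median of 13.03 and a highest of 15.2 CPM in low-insulin libraries (log2 difference -0.67, SE 0.17, unadjusted p = 0.00051). Its level is uncertain, since ribosomal protein genes share reads with near-identical copies, and the 85 ribosomal protein genes tested had a median of 0.05. Polr2k, a small subunit common to the nuclear RNA polymerases, averaged 4.16 ± 0.745 CPM in high-insulin and 7.26 ± 2.04 CPM in low-insulin muscle. Mob1a, a Hippo pathway adaptor, averaged 5.77 ± 1.22 CPM in high-insulin and 8.47 ± 1.15 CPM in low-insulin muscle. The kinase gene Map4k4 averaged 15.9 ± 2.30 CPM in high-insulin and 22.3 ± 4.63 CPM in low-insulin muscle. For the cartilage matrix gene Cilp the means were 10.1 ± 1.83 CPM in high-insulin and 14.97 ± 3.91 CPM in low-insulin muscle. The phosphatase inhibitor Ppp1r14b, the endocytic adaptor Dab2, the histone deubiquitinase Usp22, the microtubule minus-end protein Camsap2, the synuclein Sncg, the membrane tether Esyt2 and the kinetochore protein Zw10 had log2 differences between -0.63 and -0.38. For all 12 the classes overlapped, and all had an edgeR adjusted p of 0.994. A counted gene lies on the other strand of 10 named genes, which besides Hectd2os, Naxd and Mrpl47 are Ppp1r14b, Srebf1, Glul, Dbp, Pfkfb1, Scx and Angptl2, and reads of such pairs may not be separable.

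Ranking the mice by insulin in place of splitting them gave the same count. Over the 14 libraries, 0 of 12042 genes had a slope on insulin rank past an adjusted p of 0.05 (percent called 0; edgeR's quasi-likelihood test), 619 (5.14%) had an unadjusted p under 0.05, with 199 (1.65%) positive and 420 (3.49%) negative slopes, and the smallest adjusted p was 0.296. The split and the slope use the same labels and libraries and do not support each other. Spearman's rho of level with insulin likewise passed adjustment for 0 genes, with 512 (4.25%) at an unadjusted p under 0.05 from 100000 permutations and a smallest adjusted p of 0.867. Among the 18 pathway genes rho ran from -0.47 for Dbp to 0.48 for Foxo1, and 0 had an unadjusted p under 0.05. Within the 9 low-insulin mice alone, 0 of 10428 genes had a slope on rank past the threshold (percent called 0), with 687 (6.59%) at an unadjusted p under 0.05.

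Bdh1 had the largest positive rho of all genes and Serf1 the smallest p for the slope on rank. For Bdh1 rho was 0.86 (permutation p = 0.00013, adjusted p = 0.867) and a Pearson's r of 0.83 (permutation p = 1e-05, the smallest that 100000 permutations can give, adjusted p = 0.120). Without p17 and p39 r was 0.87, and within the low-insulin mice, which are 9 of the 14 that it was picked on, rho was 0.73, where its slope on rank had an edgeR adjusted p of 0.709. Serf1, which encodes a small protein linked to protein aggregation, had 2.55, 3.12, 2.82, 3.04 and 1.95 CPM in high-insulin libraries, against a lowest of 2.45, a median of 5.38 and a highest of 8.72 CPM in low-insulin libraries. Low-insulin libraries p13 and p38 lay among the high-insulin values, p47 lay just above them at 3.16 CPM, and the other 6 had 4.81 CPM or more. Its slope was -0.12 on the log2 scale per rank (SE 0.02, edgeR adjusted p = 0.296) and its r without p17 and p39 was -0.80. DESeq2 called Bdh1 and Serf1, and no other gene, for this slope (adjusted p = 0.0246 each), while without p41 edgeR's adjusted p was 0.888 for each. Leaving out any 1 library kept the slope of Bdh1 between 0.054 and 0.077 and that of Serf1 between -0.14 and -0.10. Serf1, like S100a8, Wfdc17, Socs3, Ctss, Cd44 and Fst, was chosen after its values were seen, and so were the genes with a small p that are named from the lists.

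With log2 insulin in place of ranks, which sets p41 further from the rest, 12 genes passed, 3 rising and 9 falling. For 4 of them, Bdh1 (0.27 per doubling of insulin, edgeR adjusted p = 0.00967), Serf1 (-0.45, edgeR adjusted p = 0.00967), Tmem37 and Gm10032, at least 75.5% of the slope was left without p41, although none stayed past the threshold. For the other 8, which besides those described next were Aif1l, Mt3, Mical2 and Rrad, at most 53.6% was left. Those that fell and turned on p41 included S100a8, an alarmin of neutrophils (-0.96 per doubling of insulin, edgeR adjusted p = 0.00636), Wfdc17, a gene of activated macrophages (-0.77), Socs3, the feedback inhibitor of cytokine signalling (-0.88), and Ctss, a lysosomal protease of myeloid cells (-0.38). Socs3 had 2.39, 2.495, 2.62, 3.15 and 2.64 CPM in high-insulin libraries, 40.02 CPM in p41, and between 1.80 and 6.57 CPM in the other low-insulin libraries. Wfdc17 had 5.67 CPM and S100a8 had 9.53 CPM in p41, and neither passed 1.38 CPM in any of the other 13 libraries. Without p41 the same fit called 1 gene, Fst.

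Fst encodes follistatin, a secreted protein that binds and blocks myostatin and activins. It had 2.87, 1.87, 1.61, 2.72 and 3.34 CPM in high-insulin libraries, against a lowest of 1.71, a median of 5.04 and a highest of 8.995 CPM in low-insulin libraries. The lowest was p41, and the other 8 low-insulin libraries, from 4.38 CPM upward, lay above all 5 high-insulin libraries. The mean was 2.48 ± 0.719 CPM in high-insulin and 5.81 ± 2.42 CPM in low-insulin muscle, a log2 difference of -1.22 (SE 0.31, unadjusted p = 0.00093, edgeR adjusted p = 0.994). Without p41 it was -1.34 with an edgeR adjusted p of 0.0722, and over the alternatives run for this split the adjusted p ran from 0.0722 to 0.9999. Per doubling of insulin without p41, Fst fell by 0.71 on the log2 scale (edgeR adjusted p = 0.0263), a setting chosen after the data were seen, and rho without p41 was -0.84. Fst rested on between 16 and 50 deposited counts per library in the high-insulin class. Of the 19 genes of myostatin and activin signalling, Fst and Gdf11 had an unadjusted p under 0.05, both lower, beside 2.28% of all genes. Fst had been chosen after its values were seen, and the list's median was -0.03.

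**Figure D3:**
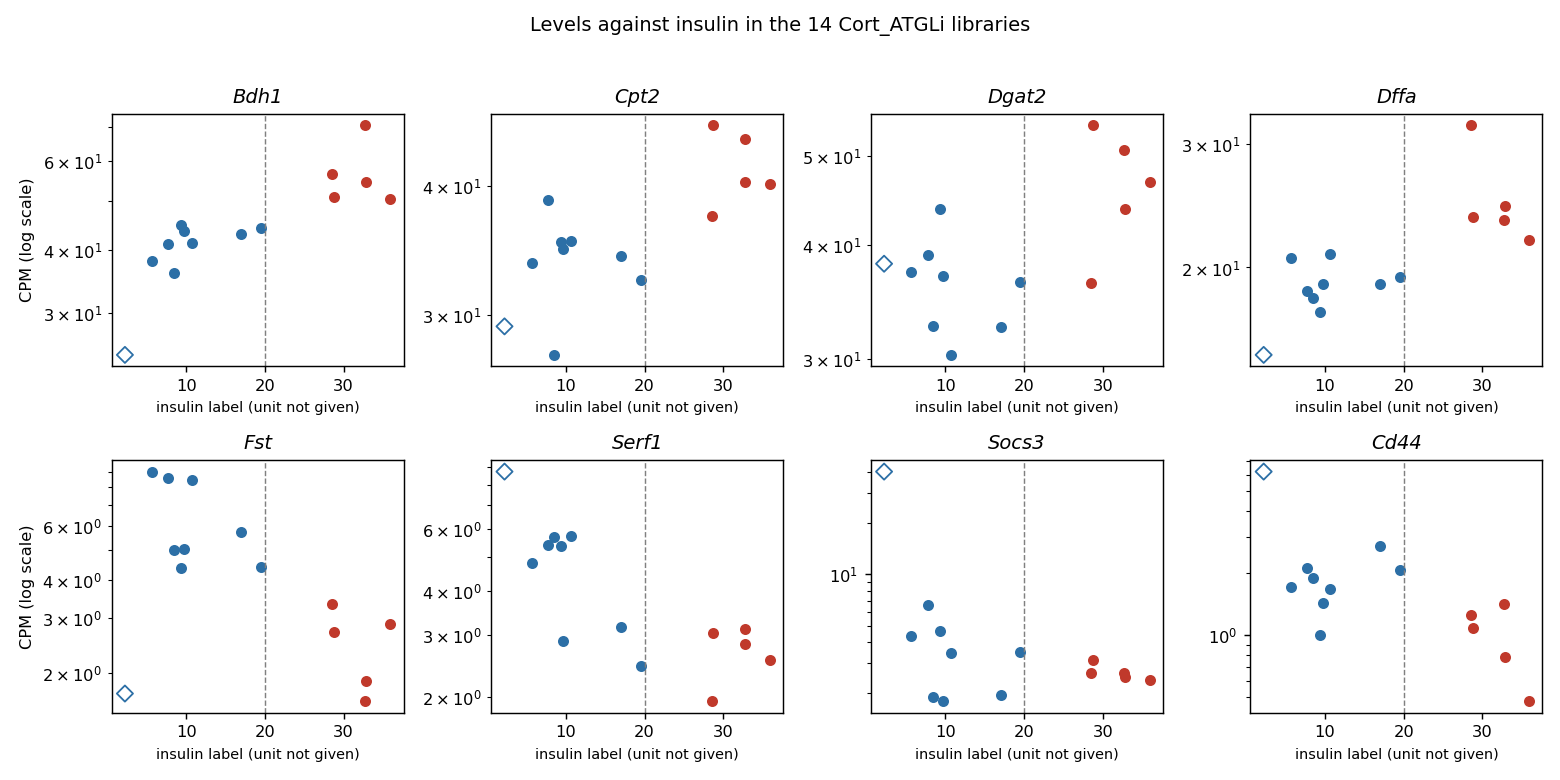
CPM (y axis, log scale) of 8 genes against the insulin label (x axis, unit not given) in the 14 Cort_ATGLi libraries, with red points for high insulin, blue points for low insulin, an open diamond for p41 and a dashed line at 20. Bdh1 and Dffa do not overlap between the classes, Fst separates all low-insulin libraries but p41 from the high-insulin ones, and Socs3 and Cd44 are highest in p41.

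Small shifts ran in one direction through the lists of oxidative metabolism, without a called gene in any list. Genes of a list move together and are not independent, and no list was tested as a set. Of 82 nuclear-encoded genes of the respiratory chain, 75 had a higher estimate in high-insulin muscle (91.5%, beside 47.9% of all genes). The median log2 difference was 0.18, beside -0.01 over all genes. Only 4 of the 82 had an unadjusted p under 0.05, all higher, beside 1.51% of all genes higher and 3.8% either way. Of 36 genes of fatty acid uptake and oxidation 27 were higher, with a median of 0.15 (0.08 without p24 to 0.20 without p39), and 7 had an unadjusted p under 0.05, all higher, beside 1.51% of all genes. They were Cpt2, Eci2, Acads, Acsl1, Cd36 and the trifunctional protein genes Hadha and Hadhb, of which Hadha averaged 262.5 CPM in high-insulin and 221.1 CPM in low-insulin muscle. Of 22 mitochondrially encoded genes 19 were higher, with a median of 0.22, but the 7 at an unadjusted p under 0.05 were all tRNAs, and the abundant mRNA mt-Cytb had 0.07. Among 21 genes of lipid droplets and lipolysis the median was 0.09. Dgat2 and Gpihbp1, the capillary anchor of lipoprotein lipase, had an unadjusted p under 0.05, both higher, beside 1.51% of all genes. Outside these lists, estimates were higher for 28 of 35 proteasome genes and 58 of 85 cytosolic ribosomal protein genes, but for 7 of 30 ribosome biogenesis genes.

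Library p24 had the highest share of mitochondrial counts, 28.7%, where the other high-insulin libraries ran from 19.8% to 25.1% and the low-insulin libraries from 19.3% in p41 to 26.8% in p25. Leaving out each library in turn moved the median of the respiratory chain between 0.04 and 0.25 and that of the mitochondrially encoded genes between 0.06 and 0.29. Without p24, p25 and p41 the medians were 0.06 for each of those lists and 0.10 for fatty acid oxidation. Slow-fibre genes had a higher estimate in 16 of 16, beside 47.9% of all genes, with a median of 0.25 (0.14 to 0.37 leaving out each library). Of these, 4 had an unadjusted p under 0.05, all higher, beside 1.51% of all genes. Among them Casq2, the cardiac and slow-muscle calsequestrin, averaged 53.3 CPM in high-insulin and 41.4 CPM in low-insulin muscle (edgeR unadjusted p = 0.0125). On insulin rank the median log2 slope of the slow-fibre genes was only 0.0049 per rank, against 0.023 for the respiratory chain. Fast-fibre genes also had a higher estimate in 16 of 16, with a median of 0.09 that was 0.03 without p41. Summed slow-fibre markers ranged from 3594 to 5247 CPM in high-insulin and from 2868 to 4088 CPM in low-insulin libraries. In whole muscle, more slow fibre in a piece and more of this RNA per fibre cannot be told apart, nor can fewer cells of any type and less RNA per cell.

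Most other lists of metabolism and protein turnover had medians within 0.1 of that of all genes. Lipid synthesis and desaturation had a median of 0.03 over 23 genes, cholesterol synthesis and uptake 0.01 over 18, glycolysis 0.04 over 25, glycogen metabolism 0.03 over 19 and amino acid and branched-chain catabolism 0.06 over 23. Scd1, the desaturase that insulin induces in liver, averaged 50.7 CPM in high-insulin and 28.6 CPM in low-insulin muscle, with a log2 difference of 0.82 (SE 0.48). Thrsp, a lipogenic gene, had 0.38 (SE 0.18, unadjusted p = 0.041). Translation factors had a median of 0.01 over 35 genes, the proteasome 0.04 over 35, autophagy and lysosome 0.03 over 29, heat shock proteins and chaperones -0.04 over 26, ribosome biogenesis -0.08 over 30, the clock -0.08 over 20, immediate early genes -0.05 over 20 and polyamine genes -0.09 over 13. The integrated stress response with amino acid genes lay lower, at -0.20 over 18 genes, and at -0.07 without p41. Per2, a clock repressor, was the clock gene with the smallest p, at 5.05 CPM in high-insulin and 7.69 CPM in low-insulin muscle (edgeR unadjusted p = 0.0255). It was the 1 clock gene of 20 with an unadjusted p under 0.05, beside 3.8% of all genes.

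Lists with lower medians were those of matrix, nerve, immune and fat cells, and several of them turned on p41. Matrix genes had a lower estimate in 23 of 29, beside 52.1% of all genes, with a median of -0.21 (-0.14 without p41). Of the 29, 2 had an unadjusted p under 0.05, both lower, beside 2.28% of all genes. Col1a2, a chain of type I collagen, averaged 22.2 CPM in high-insulin and 29.9 CPM in low-insulin muscle (edgeR unadjusted p = 0.00695). Metallothionein and acute-phase genes had a median of -0.33 over 14 genes with p41 and 0.04 without it, interferon and antigen presentation genes -0.13 over 29 and -0.07, and denervation and junction genes -0.17 over 19 and -0.02. Runx1, a factor induced by denervation, averaged 0.844 CPM in high-insulin and 2.22 CPM in low-insulin muscle (edgeR unadjusted p = 0.0135). Among the 19 denervation and junction genes, 1 had an unadjusted p under 0.05, on the lower side, beside 2.28% of all genes.

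Macrophage markers had a median of -0.29 over 13 genes with p41 and -0.03 without it. In this split 0 of them had an unadjusted p under 0.05. On insulin rank, 7 of the 13 had a negative slope at an unadjusted p under 0.05 (edgeR), beside 3.49% of all genes, and 0 passed adjustment. The median log2 slope was -0.06 per rank. These slopes include p41, which holds the lowest insulin rank. The sum of the macrophage markers ranged from 89.6 to 112.1 CPM in high-insulin libraries. It ranged from 81.4 to 126.5 CPM in the low-insulin libraries other than p41, which held 293.2 CPM. The mouse with the least insulin of the 14 thus had the highest sum of macrophage markers. Neutrophil markers, with 2 of 4 counted genes tested, summed to 10.5 CPM in p41 and to at most 3.54 CPM in any other of the 14 libraries. Satellite cell markers also peaked in p41, at 148.0 CPM, against 67.0 to 84.4 CPM in high-insulin libraries and 55.5 to 86.8 CPM in the other low-insulin libraries, with a list median of -0.09 that was -0.01 without p41. The counts of lymphocyte markers rested on 1 tested gene, Ighm, with -0.23 (SE 0.31).

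Adipocyte markers had a median of -0.33 over 11 genes, -0.15 without p41, and sums from 1060 to 2064 CPM in high-insulin and from 1177 to 2710 CPM in low-insulin libraries. Of the 11, 8 had a lower estimate, beside 52.1% of all genes. Cfd, the fat cell protease adipsin, averaged 37.8 CPM in high-insulin and 93.6 CPM in low-insulin muscle, with a log2 difference of -1.32 (SE 0.41, edgeR unadjusted p = 0.0071). It was the 1 marker lower at an unadjusted p under 0.05, beside 2.28% of all genes. Thrsp, which is also on this list, was the 1 higher at such a p, with 0.38, beside 1.51% of all genes. Erythroid genes had a higher estimate in 5 of 5, beside 47.9% of all genes, with a median of 0.45 (0.26 without p24). Of the 5, 3 had an unadjusted p under 0.05, all higher, beside 1.51% of all genes. Their sums ran from 964 to 2386 CPM in high-insulin and from 542 to 1498 CPM in low-insulin libraries. Schwann cell markers had a lower estimate in 9 of 9, beside 52.1% of all genes, with a median of -0.28 (-0.13 without p40, -0.43 without p39). Of the 9, 0 had an unadjusted p under 0.05, beside 3.8% of all genes. Their sums ran from 73.8 to 139.8 CPM in high-insulin and from 75.3 to 225.6 CPM in low-insulin libraries. Fibro-adipogenic progenitor markers had a median of -0.07 (-0.02 without p40), tendon and cartilage-like markers -0.17 (-0.06 without p25), endothelial markers -0.13 (-0.06 without p41), smooth muscle and pericyte markers 0.03 and muscle fibre markers 0.04. All of these sums overlapped between the classes, and the part of cell makeup in the shifts of single genes was not tested.

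**Figure D4:**
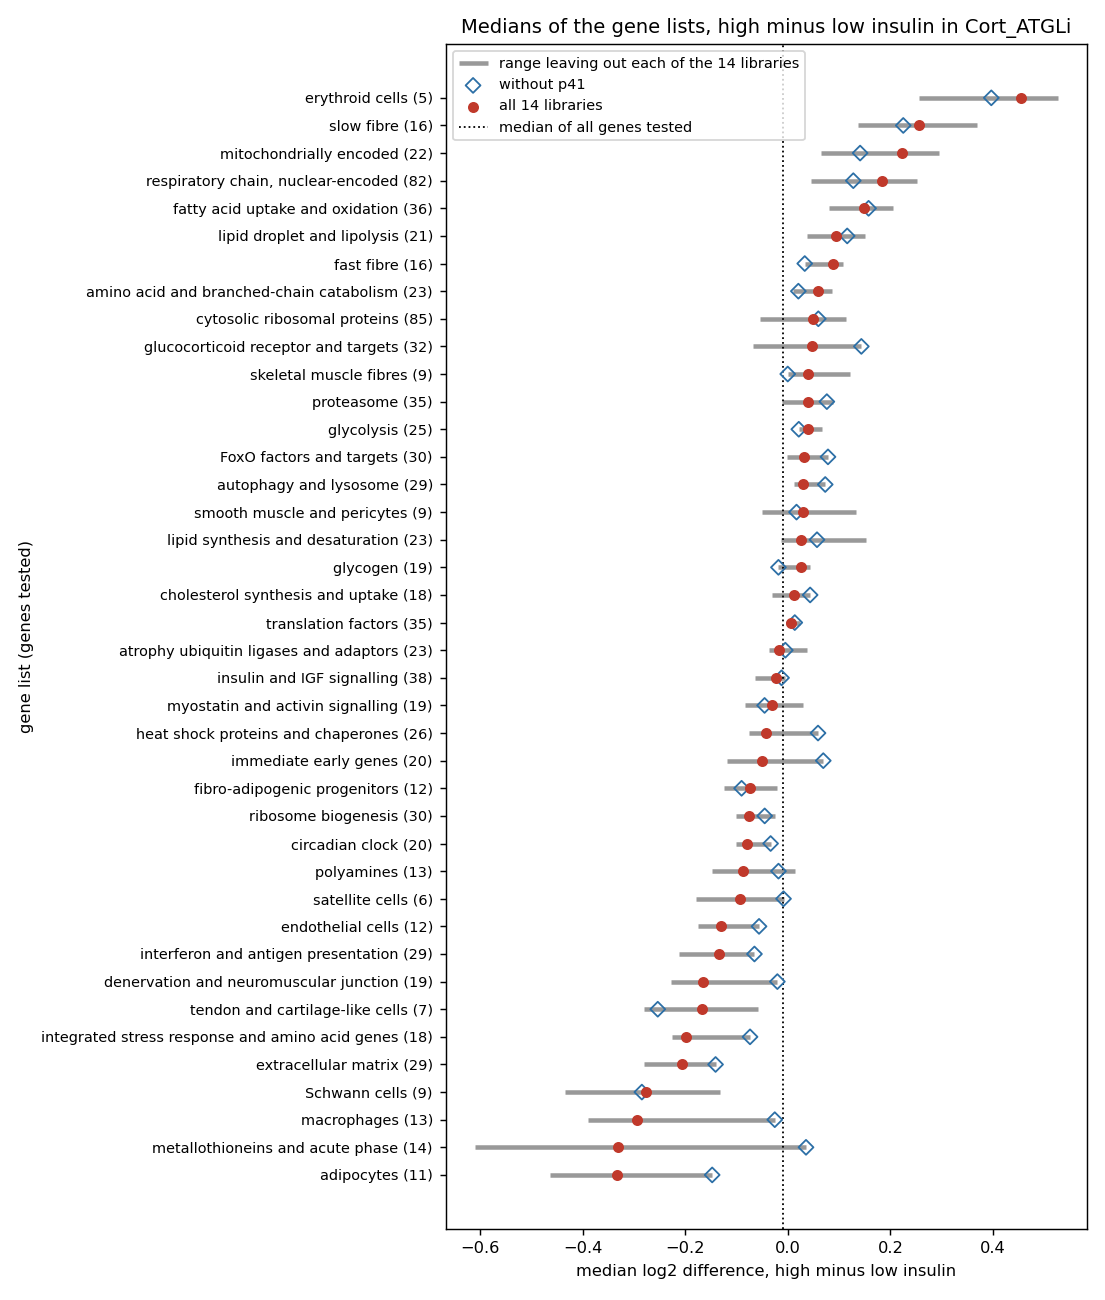
Median log2 difference (x axis, high minus low insulin in Cort_ATGLi) of the gene lists with at least 5 genes tested, 1 row per list with its number of genes, as red points for all 14 libraries, open diamonds without p41 and grey bars for the range when each library is left out in turn; the dotted line is the median of all genes, -0.01. Erythroid, slow-fibre and oxidative lists lie to the right, and the macrophage and acute-phase diamonds lie near the dotted line while their red points lie at -0.29 and -0.33.

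In the corticosterone mice without atglistatin a split at the same insulin threshold behaved otherwise, in libraries that share none with Cort_ATGLi. In Cort_CON, 11 mice had insulin above 20, from 27.7 to 39.8, and 3 had insulin below 20, from 9.31 to 16.8. Of the 11, 8 carried a diabetic label, and so did 1 of the 3. Mean fed glucose was 260 ± 75.9 in the 11 and 182 ± 74.4 in the 3 (SD). Diabetic label and glucose thus differed along with insulin in this split. The part of each in it, or in its difference from Cort_ATGLi, was not tested. High minus low insulin in Cort_CON passed the threshold for 464 of 13482 genes (percent called 3.44), with 177 (1.31%) higher and 287 (2.13%) lower (edgeR, 1 fit of all 48 libraries). The 3 low-insulin libraries, p32, p33 and p34, have consecutive title numbers, so insulin and anything those 3 mice shared cannot be told apart, and leaving out 1 of them left between 180 and 242 genes. In that same fit the Cort_ATGLi split called 0 genes, with 727 at an unadjusted p under 0.05. The difference between the splits, Cort_ATGLi minus Cort_CON, itself passed for 197 genes (percent called 1.46), with 131 (0.972%) higher and 66 (0.49%) lower, and for 45 without p32, 87 without p33 and 76 without p34.

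Actc1, the cardiac actin that is also made in immature or stressed skeletal fibres, shows the form of this difference. It had 19.6, 12.6, 25.0, 19.4 and 10.7 CPM in high-insulin and between 9.64 and 35.5 CPM in low-insulin libraries of Cort_ATGLi. In Cort_CON it had between 7.28 and 33.4 CPM in high-insulin libraries, against 247.0, 190.1 and 150.8 CPM in p32, p33 and p34. Only those 3 libraries stood apart, at the level of the EtOH_ATGLi libraries (98.3 to 306.6 CPM), and the difference of the log2 differences was 2.95 (SE 0.44, edgeR adjusted p = 8.59e-05). The 3 libraries were not like vehicle muscle throughout: Fkbp5 lay between 445 and 459 CPM in them, above every other corticosterone library in the 4 classes.

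For the other 7 genes named for this difference, the 3 libraries also lay apart from the high-insulin Cort_CON and the low-insulin Cort_ATGLi libraries, but not always at the vehicle level. Sox4, Pfkfb1 and Gpr157 lay above every EtOH_ATGLi library in them, as Sox4 with 21.8 to 78.3 CPM, against 5.37 to 10.9 CPM in EtOH_ATGLi. Angptl2 and Fam76a lay below every EtOH_ATGLi library, as Angptl2 with 2.94 to 4.20 CPM, against 14.96 to 24.2 CPM in EtOH_ATGLi, while Scx and Zfp503 overlapped with them. Sox4, a transcription factor, averaged 9.63 ± 2.82 CPM in high-insulin and 8.72 ± 2.53 CPM in low-insulin muscle of Cort_ATGLi, and 10.3 ± 3.65 CPM in high-insulin and 50.5 ± 28.2 CPM in low-insulin muscle of Cort_CON, a difference of 2.43 (SE 0.34). Pfkfb1, a bifunctional enzyme that sets the level of a glycolytic activator, averaged 37.2 ± 7.15 CPM in high-insulin and 33.5 ± 6.49 CPM in low-insulin muscle of Cort_ATGLi. In Cort_CON its means were 34.2 ± 4.27 CPM with high and 68.7 ± 1.96 CPM with low insulin, a difference of the splits of 1.16 (SE 0.17). The receptor gene Gpr157 had a difference of 1.27 (SE 0.19). In the other direction, Scx, the tendon transcription factor, averaged 26.1 ± 3.96 CPM in high-insulin and 26.9 ± 9.56 CPM in low-insulin muscle of Cort_ATGLi. In Cort_CON its means were 31.7 ± 8.44 CPM with high and 9.07 ± 1.37 CPM with low insulin, a difference of the splits of -1.85 (SE 0.29). Angptl2 had -1.53 (SE 0.27), Zfp503 -1.41 (SE 0.28) and Fam76a -0.84 (SE 0.16). Within Cort_ATGLi alone, Angptl2 (-0.41, edgeR unadjusted p = 0.0385) and Zfp503 (-0.36, edgeR unadjusted p = 0.0203) were lower with high insulin, without passing adjustment. Such a p was found, on the lower side, for 2.28% of all genes. In Cort_CON both were higher with high insulin (1.13 and 1.06). Both were picked for a negative difference that the Cort_ATGLi split is part of, so their direction there partly follows from the choice. For the 8 genes named for the difference of the splits, its edgeR adjusted p-values ran from 3.86e-05 to 0.00269. The low-insulin Cort_ATGLi mice, with insulin from 2.19 to 19.5, covered the range of the low-insulin Cort_CON mice, from 9.31 to 16.8. These 8 genes were picked for a small p of the difference of the splits. Their unlike levels in those low-insulin classes thus partly follow from the choice, and the part of insulin was not tested.

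Bdh1, the gene with the smallest p in Cort_ATGLi, had means the other way round in Cort_CON, at 44.5 ± 6.41 CPM in high-insulin and 61.3 ± 2.71 CPM in low-insulin muscle. That split, of -0.46, did not pass (edgeR adjusted p = 0.271). The difference of the splits was 0.98 (SE 0.27, edgeR adjusted p = 0.0547) and did not pass either. Bdh1 was picked for the Cort_ATGLi split that is part of this difference. Fst averaged 5.37 ± 2.32 CPM in high-insulin and 4.97 ± 0.571 CPM in low-insulin muscle of Cort_CON, with a difference of the splits of -1.32 (SE 0.47, edgeR adjusted p = 0.161). For Serf1 that difference was -1.02 (SE 0.32, edgeR adjusted p = 0.0988). Of the 12 upward genes, Dgat2 and Cpt2 did pass, genes picked for the Cort_ATGLi split that is part of this difference. Dgat2 averaged 42.7 ± 7.08 CPM in high-insulin and 71.7 ± 2.35 CPM in low-insulin muscle of Cort_CON, a split of -0.75 (edgeR adjusted p = 0.00931) and a difference of the splits of 1.10 (SE 0.24, edgeR adjusted p = 0.00982). Cpt2 averaged 33.9 ± 3.87 CPM in high-insulin and 41.4 ± 6.50 CPM in low-insulin muscle of Cort_CON, a split of -0.29 (edgeR adjusted p = 0.131) and a difference of the splits of 0.60 (SE 0.14, edgeR adjusted p = 0.0107). Of the 12 downward genes and of the 18 pathway genes, 0 had a difference of the splits past the threshold. Of the 18, Irs1 (-0.81, edgeR adjusted p = 0.00243), Trim63 (-1.06, edgeR adjusted p = 0.0333) and Glul (-0.83, edgeR adjusted p = 0.00689) were lower with high insulin in Cort_CON by its own split, beside 2.13% of all genes, and for Irs1 the difference of the splits had an edgeR adjusted p of 0.200.

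**Figure D5:**
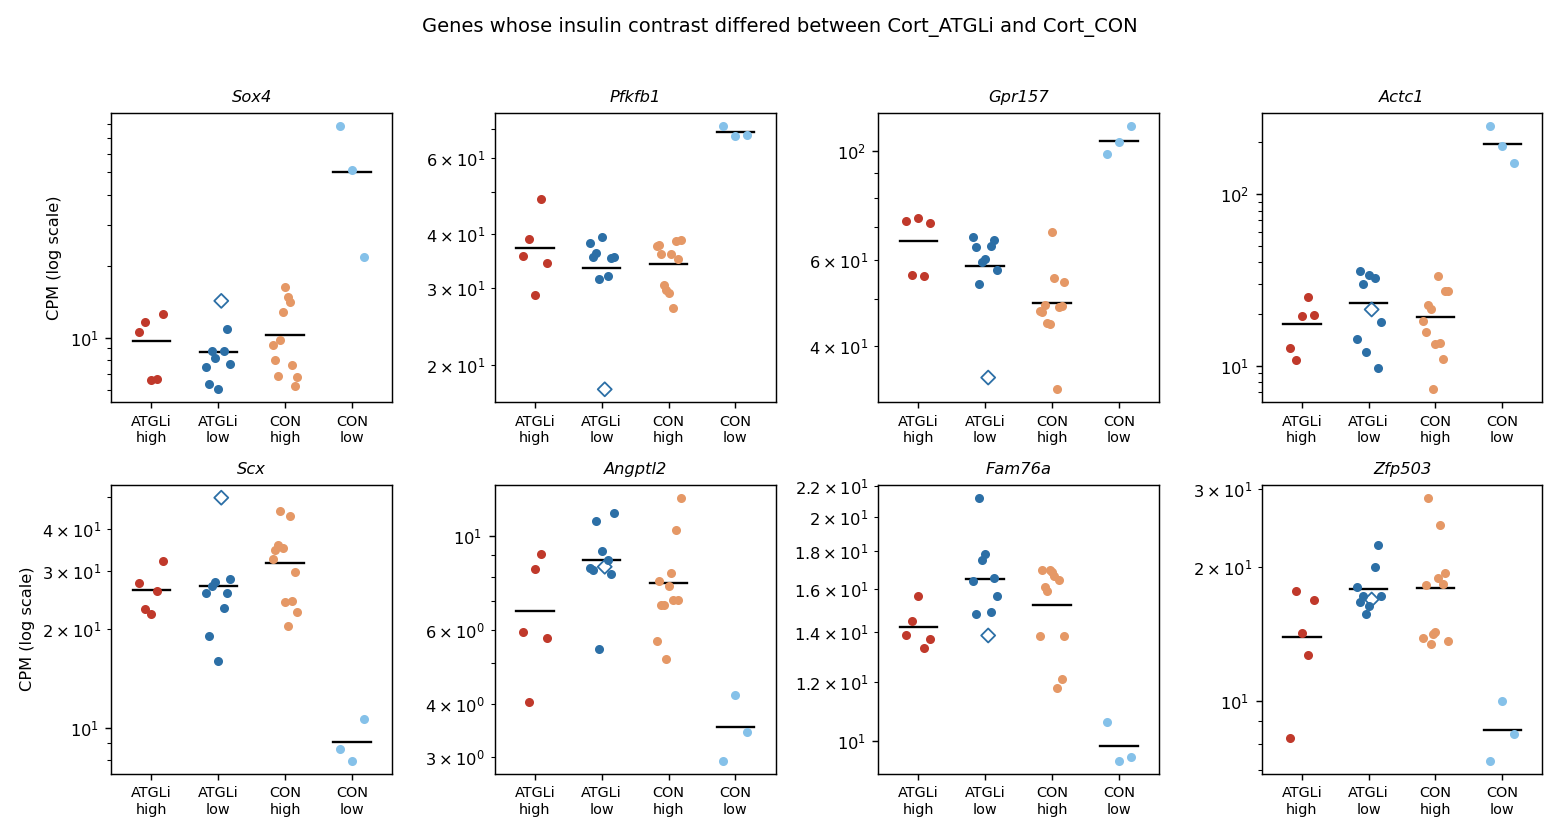
CPM (y axis, log scale) of 8 genes in Cort_ATGLi libraries with high (red, n = 5) and low insulin (blue, n = 9, p41 as an open diamond) and in Cort_CON libraries with high (orange, n = 11) and low insulin (light blue, n = 3), 1 point per library with a line at the mean. For every gene the 3 low-insulin Cort_CON libraries lie apart from the high-insulin Cort_CON and the low-insulin Cort_ATGLi libraries, as for Actc1 with 150.8 to 247.0 CPM, while the low-insulin Cort_ATGLi libraries overlap with the high-insulin ones.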

How the data were processed

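Per the labels' protocols, a QuantSeq 3′ kit and 50 bp forward reads gave 48 libraries of mixed gastrocnemius RNA. The authors deposited a table of raw counts for 14125 genes. The submitters' processing notes list GRCm38 as the build, with the tools R 3.6.1 and DESeq2 1.24.0. Not given in the sources used here were the aligner, the counter, its strand setting and the annotation. In 47 of the 48 libraries, the 14 Cort_ATGLi libraries among them, every deposited count was even; the counts were tested as deposited and also halved. A deposited normalized table was not used.

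The insulin label, at a threshold of 20, gave the classes. Counts were fitted with edgeR 4.0.16 in R 4.3.3 (TMM scaling, robust quasi-likelihood fit, two-sided tests, genes kept by filterByExpr at a minimum count of 10, Benjamini-Hochberg over all genes tested, threshold 0.05), on the 14 Cort_ATGLi libraries for the split and for the slope on insulin rank, on 9 for the slope within the low-insulin class, and on all 48 in 6 groups for Cort_CON and the difference of the splits. CPM divided counts by TMM-scaled totals of all 48 libraries. Correlations used log2(CPM + 0.25) with 100000 permutations for each gene. SD is between libraries, SE and 95% intervals come from the edgeR fit. Fitting code was tested on simulated counts. Gene coordinates come from an annotation of GRCm38. PCR reads without molecular identifiers are not independent molecules, so a count is not a number of molecules.

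Genes named are, as none was called, the 12 with the smallest p in each direction that reached 5 CPM on average and have an established symbol, 18 pathway genes, and 8 with a called difference of the splits; all other genes named were chosen after their values were seen. The 42 gene lists, the classes and the pathway genes were chosen with earlier results of these data known. Alternatives were DESeq2 1.42.0 and its size factors, limma 3.58.1 (voom), no filter, covariates for title number, depth and glucose, other insulin scales, and leaving out libraries; 2 alternatives, without p24, p25 and p41 and with log2 insulin without p41, were chosen after seeing the data.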

Additional observations from a re-analysis of the deposited data

Results flagged for a closer look

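Within a class, a value was marked where the gap of the highest or lowest library to its neighbour took an unusually large part of the class's range by Dixon's test. Of 124 class-by-measure groups, 19 (15.3%) were marked, and 15 of the 19 were library p41, the low-insulin mouse with the least insulin. The test marks about 1 in 20 groups of independent, normally distributed values. Here CPM were tested without a log scale and the groups reuse the same 14 libraries, so that rate does not measure chance. Some of the genes were chosen after their values were seen, 5 of them high in p41; without the 7 such genes 14 of 110 groups (12.7%) were marked, 10 of them p41. In p41 the high values were those of Mt2 (3689 CPM), Pnpla2 (651.7 CPM), Lcn2 (210.7 CPM), Scx (49.9 CPM), Irs2 (41.9 CPM), Socs3 (40.02 CPM), Angptl4 (16.5 CPM), Ctss (11.96 CPM), S100a8 (9.53 CPM), Cd44 (6.21 CPM) and Wfdc17 (5.67 CPM). Its low values were those of Gpr157 (34.5 CPM), Bdh1 (24.8 CPM) and Pfkfb1 (17.5 CPM), and its mean correlation with the other 13 libraries was 0.953. The cause of these values was not tested. The other marks were p18 of the high-insulin class, high for Dffa (31.9 CPM) and low for Pnpla2 (264.8 CPM), and for Dbp p24 of the high-insulin class (6.25 CPM, low) and p25 of the low-insulin class (15.9 CPM, high).

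The insulin split differed between Cort_ATGLi and Cort_CON by its own test for 197 genes, 45 to 87 when 1 of the 3 low-insulin Cort_CON libraries was left out. Among those named, the log2 difference of the splits, Cort_ATGLi minus Cort_CON, was 2.95 for Actc1, 2.43 for Sox4, 1.27 for Gpr157, 1.16 for Pfkfb1, -1.85 for Scx, -1.53 for Angptl2, -1.41 for Zfp503 and -0.84 for Fam76a.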

How the results depend on the processing

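For high against low insulin, 0 genes passed under each alternative run, and for 37 of 49 named genes no alternative turned the direction. The 12 genes that turned were all among the 18 pathway genes. Named genes outside those 18 were picked for a small p in this split or after their values were seen. Their kept direction was thus partly fixed by the choice. The slope on insulin passed for 2 genes with no filter, 2 with DESeq2, 12 with log2 insulin and 1 with log2 insulin without p41. Leaving out 1 low-insulin library gave 180 to 242 genes in Cort_CON and 45 to 87 for the difference of the splits. The split of directions moved with limma voom, to 121 higher and 325 lower in Cort_CON and 166 and 38 for the difference. No paired analysis was possible because the classes share no title number.

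The directions that turned were those of pathway genes with wide or small differences, up to -0.77 for Mt2, and the cause was not tested. With limma voom the log2 differences were 0.00816 (Srebf1), -0.073 (Mstn), 0.025 (Pnpla2) and 0.074 (Lcn2). With the title number block they were 0.085 (Irs2), 0.17 (Srebf1), -0.014 (Fbxo32), 0.13 (Pnpla2), 0.15 (Mt2) and 0.23 (Lcn2). With depth as a covariate they were 0.12 (Irs2), -0.10 (Mstn), 0.10 (Pnpla2), 0.020 (Mt2) and 0.26 (Lcn2). With glucose as a covariate they were 0.076 (Irs1), 0.20 (Irs2), 0.31 (Hk2), 0.28 (Srebf1), -0.020 (Trim63), 0.027 (Pnpla2) and 0.62 (Lcn2). Without p24, p25 and p41 they were 0.19 (Irs2), 0.088 (Pnpla2), 0.34 (Mt2) and 0.46 (Lcn2). With only p13 to p25 they were 0.38 (Irs2), -0.14 (Mstn), 0.24 (Pnpla2), 0.41 (Mt2) and 0.14 (Lcn2). With all 48 libraries Srebf1 had 0.0016. Leaving out single libraries gave -0.33 to 0.47 for Angptl4, -0.035 to 0.15 for Fbxo32, -0.15 to 0.13 for Irs2, -0.31 to 0.39 for Lcn2, -0.28 to 0.17 for Mstn, -1.02 to 0.26 for Mt2, -0.11 to 0.19 for Pik3r1, -0.097 to 0.15 for Pnpla2 and -0.32 to 0.15 for Srebf1.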
